A study of Mus musculus with 14 samples.

Results

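The circadian clock genes described here are 10 genes of the molecular clock, Arntl, Clock, Per1, Per2, Per3, Cry2, Nr1d1, Nr1d2, Dbp and Tef, out of 19360 gene symbols measured. They were chosen by name, and each was represented by the RefSeq transcript with the largest summed read count. All 10 passed the filter on low counts, together with 14565 genes in all. Each library came from 1 mouse of the C57BL/6J strain, 15 months old, from which the anterior cortex was taken. The mice were wild type (WT, n = 4) or carried a mutation of Vcp called DG on 1 (DG/+, n = 6) or both (DG/DG, n = 4) alleles, and the series title calls the mutation an autosomal dominant hypomorph. The product of Vcp is an ATPase that unfolds proteins and pulls them out of larger assemblies. The labels name no other allele or agent, and give neither sex nor the time of day at which tissue was taken.

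The clock runs as a transcription loop. BMAL1, the product of Arntl, pairs with CLOCK on a DNA element called the E-box and drives the period genes (Per1, Per2, Per3), the cryptochromes (Cry2), the nuclear receptors Nr1d1 and Nr1d2 (REV-ERBα and REV-ERBβ) and the PAR bZIP factors Dbp and Tef. PER and CRY proteins then inhibit BMAL1 and CLOCK, REV-ERB proteins repress Arntl through an element called the RORE, and DBP and TEF act on a further element, the D-box. Most cells of the body hold such a loop, the cells of the cortex included, and transcripts such as those of Per1, Nr1d1 and Dbp change strongly with the hour, while Clock changes little in most tissues.

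Sequences before the start sites show which of these elements lie close to each member. RefSeq promoter windows of 300 bases (250 before the start site, GRCm38.p6) were found for 9 members in 14 windows. Both strands were searched for the E-box CACGTG, which reads the same on both, its variant CACGTT, the D-box (TTATGTAA or TTACGTAA) and the core of the RORE (TAGGTCA or TGGGTCA). The matches found did not overlap. The sequences below are those in which an element was found, read on the strand of the gene, with the element in capitals. A CACGTT on the opposite strand reads AACGTG. The 250 bases before the start site are shown for Per1 (chr11:69098699-69098948, plus strand), Tef (chr15:81802423-81802672, plus strand), Cry2 (chr2:92434070-92434319, minus strand), Nr1d1 (chr11:98775378-98775627, minus strand) and Per3 (chr4:151044666-151044915, minus strand). For Arntl 30 bases after the start site are shown (chr7:113207530-113207559, plus strand).
Per1: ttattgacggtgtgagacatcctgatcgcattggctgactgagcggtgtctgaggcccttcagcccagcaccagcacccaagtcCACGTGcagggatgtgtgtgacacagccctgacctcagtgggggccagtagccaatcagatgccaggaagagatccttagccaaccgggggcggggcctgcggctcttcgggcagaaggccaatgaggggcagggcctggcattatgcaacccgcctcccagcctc
Tef: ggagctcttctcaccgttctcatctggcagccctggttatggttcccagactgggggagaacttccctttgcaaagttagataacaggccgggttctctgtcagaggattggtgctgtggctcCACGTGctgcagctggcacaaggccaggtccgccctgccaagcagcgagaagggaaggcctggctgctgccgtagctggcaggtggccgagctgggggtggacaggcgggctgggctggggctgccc
Cry2: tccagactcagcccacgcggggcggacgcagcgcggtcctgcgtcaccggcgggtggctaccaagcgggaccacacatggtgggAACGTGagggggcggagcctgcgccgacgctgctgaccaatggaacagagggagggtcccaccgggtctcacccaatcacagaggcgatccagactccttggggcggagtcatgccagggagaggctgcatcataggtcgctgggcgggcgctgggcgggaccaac
Nr1d1: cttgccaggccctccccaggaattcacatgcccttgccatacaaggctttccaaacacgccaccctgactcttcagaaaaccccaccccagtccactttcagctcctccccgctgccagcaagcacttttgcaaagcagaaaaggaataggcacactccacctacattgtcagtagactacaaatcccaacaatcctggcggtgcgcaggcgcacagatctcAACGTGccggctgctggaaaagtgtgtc
Per3: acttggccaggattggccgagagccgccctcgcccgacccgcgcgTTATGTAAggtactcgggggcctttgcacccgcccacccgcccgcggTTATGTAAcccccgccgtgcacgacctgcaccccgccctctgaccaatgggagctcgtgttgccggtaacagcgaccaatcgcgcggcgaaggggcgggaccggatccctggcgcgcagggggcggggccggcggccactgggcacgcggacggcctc
Arntl: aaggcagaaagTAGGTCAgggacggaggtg

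The E-box began 166 bases before the start site of Per1 and 127 bases before that of Tef, and a further Tef window held it 138 bases before its start. The other Per1 window held none. It occurred in 7.15% of the 32851 windows of all genes. CACGTT began 166 bases before the start of Cry2 and 28 bases before that of Nr1d1, and 4.68% of all windows held it. Per3 carried the D-box at 205 and at 158 bases, an element found in 1.06% of all windows, and Arntl carried the RORE core 31 bases after its start, against 6.45% of all windows. The other Arntl window held none, and both Arntl start sites lie inside the annotated gene, downstream of its outermost start. The windows of Clock, Nr1d2 and Dbp held none of these letters. A match describes the letters only, and binding was not measured.

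The 14 libraries held 8.65 to 15.91 M counts (M for mega) over 1 transcript per gene. Levels are counts per mega-count of the library (CPM) after TMM scaling. The 6 markers of excitatory cortical neurons summed to 994.4 to 1493 CPM, so markers of the labelled tissue were present in all libraries. The 6 markers of the hypothalamus and the suprachiasmatic nucleus, the seat of the central clock, summed to 84.1 CPM in WT replicate 1 and 80.7 CPM in DG/DG replicate 3, and to 0.347 to 2.85 CPM in the other 12 libraries. None of these 6 passed the filter on low counts. Markers of other tissue varied far more: the 5 pituitary markers reached 4194 CPM in DG/DG replicate 1, and the 5 choroid plexus markers reached 1289 CPM in WT replicate 3. DG/+ replicates 1 and 5 held 567.2 and 597.1 CPM of choroid plexus markers, and the 5 striatal markers reached 677.7 CPM in DG/+ replicate 4 and 561.6 CPM in DG/DG replicate 3. WT replicate 3 and DG/DG replicate 1, with WT replicate 2 and DG/+ replicate 2, were set aside as an alternative in earlier work on these data. WT replicates 2 and 3 and DG/+ replicate 2 had the highest sums of the 4 cerebellar markers, 135.4 to 152.1 CPM, where the other libraries held 67.8 to 120.4 CPM. Of these markers Pcp2 and Gabra6 did not pass the filter on low counts. Values without these 4 libraries are given beside the calls that depend on them, and the libraries kept are thus not free of other tissue. The libraries of one genotype are separate mice. In such bulk RNA, fewer cells of a type and less RNA per cell cannot be told apart.

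Per unit of transcript length the members differed widely in level. Tef was the most abundant at 107.2 ± 7.44 CPM per kb (SD, n = 14), followed by Cry2 at 48.1 ± 5.13 and Nr1d2 at 33.2 ± 4.33 CPM per kb. Dbp (26.4 ± 6.03), Per1 (25.6 ± 4.61), Nr1d1 (23.1 ± 5.51) and Clock (21.5 ± 1.86 CPM per kb) came next, and these neighbours in the order lay within 1 SD of each other. Arntl (14.2 ± 1.27) and Per2 (14.1 ± 2.68) could not be ordered either, and Per3 was the lowest at 11.1 ± 2.11 CPM per kb.

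The members also differed in how far they varied from mouse to mouse. Dbp spread over 2.23 times from the lowest library to the highest, Per2 over 2.15 times and Nr1d1 over 2.13 times. Per1 followed at 1.95 times, Per3 at 1.82 times and Nr1d2 at 1.62 times. At the other end stood Tef (1.24 times), Arntl (1.30 times), Clock (1.31 times) and Cry2 (1.37 times). The SD of log2 CPM over the 14 libraries was 0.36 for Dbp and 0.33 for Nr1d1, where counting error alone gives 0.061 and 0.053. It was 0.13 for Arntl, 0.12 for Clock and 0.098 for Tef, against counting errors of 0.065, 0.033 and 0.019. An SD as large as that of Dbp was reached by 15.6% of the genes whose mean level was 1 CPM or more, and one as large as that of Tef by 90.2%.

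The highest and lowest values were gathered in a few libraries. WT replicate 3 held the lowest level of 4 members (Cry2, Nr1d1, Nr1d2 and Dbp), and DG/DG replicate 4 that of 2 (Per1 and Per2). WT replicate 4 held the highest level of all 3 period genes, and DG/+ replicate 1 that of Cry2, Nr1d1 and Dbp. WT replicate 4 was also the shallowest library, and its 12 immediate early genes, which neuronal activity induces, summed to 1704 CPM, the highest of the 14 libraries. WT replicate 3 had the lowest sum of immediate early genes, 705.7 CPM, and the lowest sum of oligodendrocyte markers, 1486 CPM. The part of these measures in the clock gene levels was not tested.

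**Figure D1:**
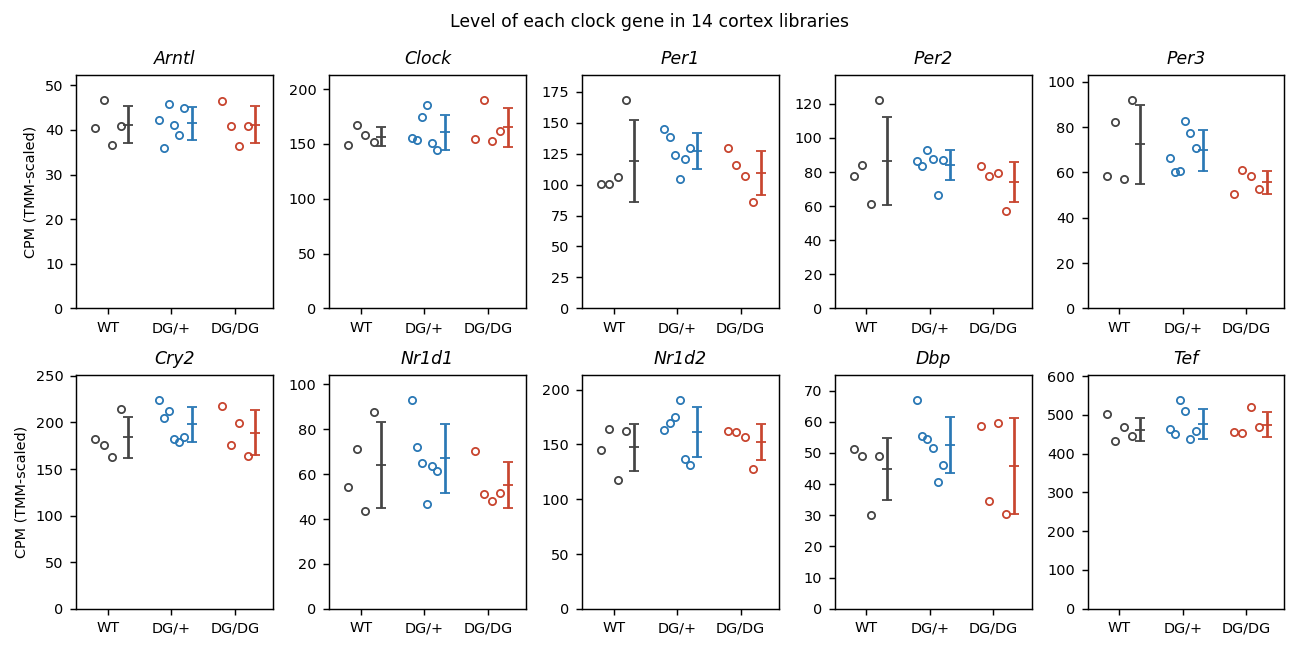
Level of each of the 10 clock genes in CPM (TMM-scaled, linear axis from 0) by genotype, with 1 open circle per mouse and the bar giving mean ± SD (WT n = 4, DG/+ n = 6, DG/DG n = 4). The 3 genotypes overlap for every gene, and WT replicate 4 lies at the top for Per1 (168.5 CPM), Per2 (122.5 CPM) and Per3 (92.1 CPM).

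The first comparison asks whether the DG allele altered the level of the clock genes. No member passed the test in any of the 3 comparisons of genotypes, and in none of them did the groups of a member fail to overlap. Over all genes 0% passed in each comparison (edgeR's quasi-likelihood test with Benjamini-Hochberg adjustment over 14565 genes). For DG/DG against WT, 746 genes (5.12%) had an unadjusted p under 0.05 and 2.62% of genes had groups that did not overlap. For DG/+ against WT these shares were 1.6% (233 genes) and 0.316%, and for DG/DG against DG/+ they were 3.3% (481 genes) and 1.21%. DESeq2 and limma-voom likewise called 0 genes in each comparison, with 728, 211 and 473 genes at an unadjusted p under 0.05 by DESeq2 and 633, 251 and 484 by limma-voom.

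Among the activators, Arntl stood at 40.5, 46.8, 36.5 and 40.9 CPM in WT replicates 1 to 4 and at 46.6, 41.0, 36.3 and 41.0 CPM in DG/DG replicates 1 to 4. In DG/+ it ranged from 35.9 to 45.8 CPM with a median of 41.6 CPM. The 3 genotypes spanned the same values, and the genotype means of 41.2 ± 4.23 (WT), 41.5 ± 3.74 (DG/+) and 41.2 ± 4.19 CPM (DG/DG) lay within 1 SD of each other. For DG/DG against WT its log2 fold change had a 95% confidence interval from -0.21 to 0.21. Clock, the partner of BMAL1, stood at 148.7, 167.7, 158.1 and 152.0 CPM in WT and at 154.4, 190.4, 153.0 and 162.1 CPM in DG/DG, and ranged from 144.8 to 185.6 CPM in DG/+ (median 154.3 CPM). Its highest value was that of DG/DG replicate 2, and its log2 fold change of DG/DG against WT was 0.075 ± 0.090 (SE), with an interval from -0.12 to 0.27.

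Among the inhibitors, Per3 had the lowest unadjusted p of the 10 members. It stood at 58.2, 82.1, 57.0 and 92.1 CPM in WT and at 50.5, 60.9, 58.3 and 52.6 CPM in DG/DG, and ranged from 60.2 to 82.9 CPM in DG/+ with a median of 68.6 CPM. WT replicates 2 and 4 lay above every DG/DG mouse, while WT replicates 1 and 3 lay within the DG/DG range. The log2 fold change of DG/DG against WT was -0.38 ± 0.15 (SE; 95% confidence interval -0.69 to -0.062; unadjusted p = 0.022, adjusted p = 0.886, edgeR). Against DG/+ it was -0.33 ± 0.14 (interval -0.61 to -0.037; unadjusted p = 0.0294, adjusted p = 0.972, edgeR), so neither difference passed the adjusted test. These comparisons share the DG/DG mice. In the authors' deposited table Per3 had a log2 fold change of -0.36 for DG/DG against WT, with a p of 0.0262 and a false discovery rate of 1.

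The size of the Per3 difference between DG/DG and WT leaned on WT replicate 4. Without WT replicate 4 the log2 fold change of DG/DG against WT was -0.24 (unadjusted p = 0.103, edgeR), and over all libraries left out in turn it ranged from -0.48 to -0.24. That of DG/DG against DG/+ ranged from -0.37 to -0.28 in this way, and neither changed sign. Across the 14 libraries Per3 and the microglial markers had r = -0.72 (permutation p = 0.00464, adjusted p = 0.0676; rho = -0.74, permutation p = 0.00377; r = -0.68 without the 2 farthest libraries). This relation did not pass the adjusted test. The 4 microglial markers, all tested and none at 0 in every library, summed to 184.6 to 215.6 CPM in WT, 191.8 to 236.0 in DG/+ and 186.4 to 245.8 in DG/DG. The 5 astrocyte markers summed to 1057 to 1535 CPM in WT, 1031 to 1258 in DG/+ and 1236 to 1539 in DG/DG. The part of these cell types in the Per3 values was not tested.

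Per1, which is also an immediate early and glucocorticoid-induced gene, stood at 100.3, 100.8, 106.1 and 168.5 CPM in WT and at 129.1, 115.6, 106.5 and 86.2 CPM in DG/DG, and ranged from 104.7 to 145.2 CPM in DG/+ (median 126.6 CPM). The WT mean of 118.9 ± 33.2 CPM rested on replicate 4, the other 3 WT mice lying between 100.3 and 106.1 CPM. The log2 fold change of DG/DG against WT was -0.12 ± 0.16 (SE; adjusted p = 0.942, edgeR), and without WT replicate 4 its sign turned, to 0.094. Per2 stood at 77.7, 84.4, 61.1 and 122.5 CPM in WT and at 83.3, 77.6, 79.4 and 57.1 CPM in DG/DG, and ranged from 66.8 to 92.9 CPM in DG/+ (median 86.9 CPM). WT replicate 4 again lay apart, and the log2 fold change of DG/DG against WT was -0.21 ± 0.17 (SE; adjusted p = 0.904, edgeR). Cry2, which binds CLOCK and BMAL1 as a repressor, ranged from 163.4 to 214.2 CPM in WT, 178.8 to 224.2 in DG/+ and 164.0 to 217.9 in DG/DG. Its log2 fold change was 0.041 ± 0.11 for DG/DG against WT and 0.11 ± 0.097 for DG/+ against WT.

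Of the nuclear receptors that repress Arntl, Nr1d1 stood at 54.3, 71.3, 43.7 and 87.5 CPM in WT and at 70.5, 51.0, 48.2 and 51.8 CPM in DG/DG, and ranged from 46.7 to 93.1 CPM in DG/+ (median 64.4 CPM). The spread within WT alone covered the whole DG/DG range. Its log2 fold change was -0.21 ± 0.22 (SE) for DG/DG against WT. Compared with DG/+ mice, DG/DG mice had a value of -0.28 ± 0.20 (adjusted p = 0.917 and 0.972, edgeR). Nr1d2 ranged from 117.8 to 164.5 CPM in WT, 131.5 to 190.7 in DG/+ and 128.0 to 162.5 in DG/DG, with a log2 fold change of 0.046 ± 0.13 for DG/DG against WT.

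Of the PAR bZIP factors, Dbp stood at 51.4, 49.1, 30.1 and 48.9 CPM in WT and at 58.6, 34.6, 59.6 and 30.5 CPM in DG/DG, and ranged from 40.6 to 67.0 CPM in DG/+ (median 53.0 CPM). The DG/DG mice fell into a pair above every WT mouse and a lower pair within the WT range. The log2 fold change was 0.034 ± 0.23 (SE) for DG/DG against WT, with an interval from -0.46 to 0.53 that is the widest of the 10 members. For DG/+ against WT it was 0.23 ± 0.21. Tef ranged from 432.5 to 502.5 CPM in WT, 438.5 to 538.5 in DG/+ and 452.1 to 521.4 in DG/DG, with a log2 fold change of 0.039 ± 0.080 for DG/DG against WT. Its interval, -0.13 to 0.21, was the narrowest.

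Without the 4 libraries set aside (WT replicates 2 and 3, DG/+ replicate 2 and DG/DG replicate 1) the log2 fold change of DG/DG against WT took the opposite sign for Cry2 (-0.14), Nr1d2 (-0.044) and Dbp (-0.27), none of them past the test.

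Set against DG/+, DG/DG mice had a log2 fold change ± SE of -0.011 ± 0.090 for Arntl, 0.039 ± 0.082 for Clock, -0.22 ± 0.15 for Per1, -0.18 ± 0.16 for Per2 and -0.065 ± 0.097 for Cry2. For Nr1d2 it was -0.084 ± 0.12, for Dbp -0.20 ± 0.21 and for Tef -0.0050 ± 0.073. In DG/+ against WT it was 0.011 ± 0.090 for Arntl, 0.037 ± 0.083 for Clock, 0.097 ± 0.15 for Per1, -0.034 ± 0.16 for Per2, -0.051 ± 0.13 for Per3, 0.068 ± 0.20 for Nr1d1, 0.13 ± 0.12 for Nr1d2 and 0.044 ± 0.073 for Tef. Each of these intervals included 0.

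As a list, 5 members had a higher and 5 a lower fitted level in DG/DG than in WT, with a median log2 fold change of 0.017, beside 0.00028 over all genes. In DG/+ against WT 8 were higher and 2 lower, with a median of 0.056 beside -0.0068. In DG/DG against DG/+ 1 was higher and 9 were lower, with a median of -0.13 beside 0.0023. None of these differences of a member passed the adjusted test, so none was called as a change. That does not show that the levels were equal. The comparisons share mice, and the signs of the smallest differences turned under other settings.

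**Figure D2:**
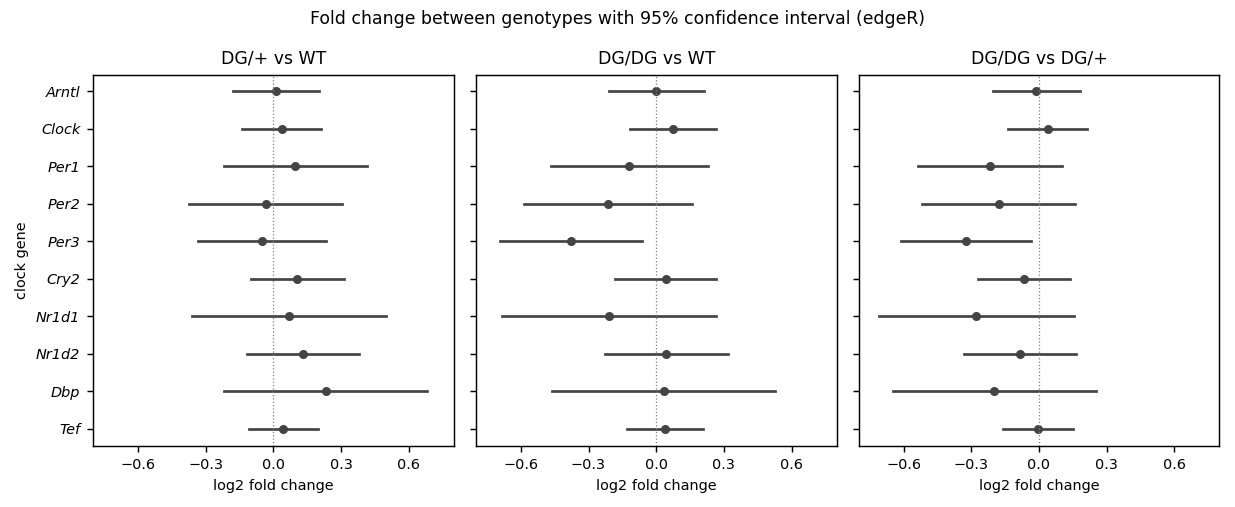
Fitted log2 fold change of each clock gene (points) with its 95% confidence interval (lines) for DG/+ against WT, DG/DG against WT and DG/DG against DG/+, from edgeR over all 14 libraries. The intervals of Per3 in both comparisons with DG/DG (-0.69 to -0.062 and -0.61 to -0.037) do not reach 0, all others do, and no adjusted p was under 0.05.

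A further 24 genes of the clock and its regulators were listed, of which 23 were in the table and tested (Ciart under the symbol Gm129). None passed the test for genotype. In DG/DG against WT 11 were higher and 12 lower, and 1 had an unadjusted p under 0.05. That gene was Arntl2, a paralog of Arntl, with a log2 fold change of -0.56 ± 0.24 (SE; unadjusted p = 0.0302, adjusted p = 0.886, edgeR). In DG/+ against WT 15 were higher and 8 lower, and in DG/DG against DG/+ 10 were higher and 13 lower, none with an unadjusted p under 0.05. Bhlhe40, which encodes the E-box repressor DEC1, had the smallest p of DG/+ against WT, at 0.27 ± 0.15 (log2 fold change ± SE).

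The second comparison asks whether the RNA levels of the E-box targets followed those of Arntl and Clock from mouse to mouse. The BMAL1 and CLOCK proteins and their activity were not measured, and the time of day is not given. A lack of relation in RNA therefore does not show that the targets failed to respond to their activators. For Arntl the spread between mice was only 1.99 times the counting error. None of the 8 targets was related to Arntl or to Clock at an adjusted p under 0.05 (16 relations of log2 CPM over 14 libraries, 2-sided permutation test, Benjamini-Hochberg adjustment over the 16), and the lowest adjusted p was 0.66. With Arntl, Pearson's r was positive for 7 of the 8 targets and ranged from -0.080 for Tef to 0.38 for Nr1d1. The relation of Nr1d1 had a permutation p of 0.178, a rho of 0.30 (permutation p = 0.295) and an r of 0.50 without the 2 libraries farthest from the median of Arntl. That of Per2 had r = 0.34 (permutation p = 0.234), rho = 0.43 (permutation p = 0.129) and r = 0.42 without those libraries. Per1 and Arntl were close to unrelated, at r = 0.071 (permutation p = 0.807).

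With Clock, r was positive for 3 of the 8 targets and ranged from -0.34 for Nr1d1 to 0.48 for Nr1d2. Nr1d2 had a permutation p of 0.0763, a rho of 0.43 (permutation p = 0.128) and an r of 0.31 without the 2 farthest libraries. Within the 6 DG/+ mice r of Nr1d2 with Clock was 0.86 (exact permutation p = 0.0444) and that of Tef with Clock was 0.86 (exact permutation p = 0.0472), neither adjusted for the other relations. The WT and DG/DG groups, of 4 mice each, were too small for a correlation. Arntl and Clock themselves had an r of 0.18 (permutation p = 0.539; rho = 0.34, permutation p = 0.241).

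In the single libraries below, targets lay on both sides of their medians. Arntl was highest in WT replicate 2 (46.8 CPM), where Per1 stood at 100.8 CPM, below its median of 118.0 CPM, while Per3 stood at 82.1 CPM, above its median of 60.8 CPM. Per2, Nr1d1 and Nr1d2 also lay above their medians there, and Cry2, Dbp and Tef below. Arntl was lowest in DG/+ replicate 2 (35.9 CPM), where Per1 (138.3 CPM) and Dbp (55.5 CPM, median 50.2 CPM) lay above their medians. So did Per2, Cry2, Nr1d1 and Nr1d2 in that library, while Per3 and Tef lay below. Clock was highest in DG/DG replicate 2 (190.4 CPM), where Dbp stood at 34.6 CPM and every target but Per3 lay below its median. The next highest Clock, in DG/+ replicate 4 (185.6 CPM), came with the highest Nr1d2 (190.7 CPM) and an Nr1d1 of only 46.7 CPM.

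**Figure D3:**
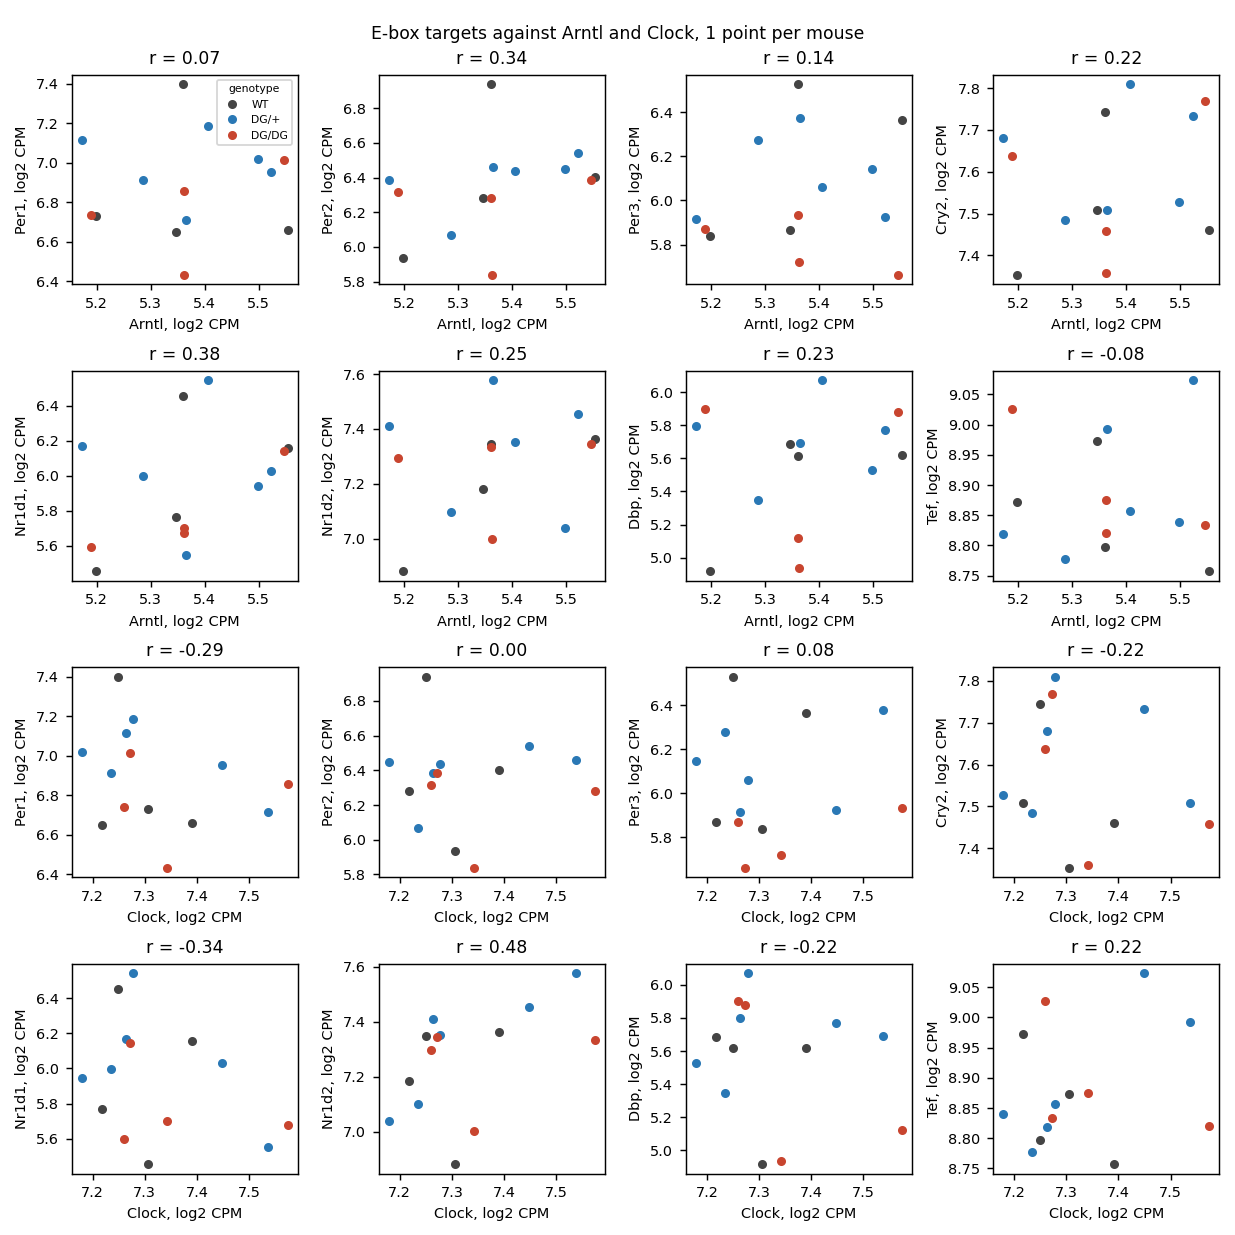
Level of each of the 8 E-box targets (y axis, log2 CPM) against that of Arntl (upper 8 panels) or Clock (lower 8 panels; x axis, log2 CPM), with 1 point per mouse coloured by genotype and Pearson's r above each panel. The r values range from -0.34 to 0.48 and none passed the adjusted permutation test.

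The same relation was fitted over the whole table as the slope of each gene's log2 level on that of Arntl or Clock, with genotype in the model. No gene of 14564 passed for either (0% each, edgeR). For the slope on Arntl 769 genes (5.28%) had an unadjusted p under 0.05, and 806 by DESeq2, which also called 0. None of the 9 other members was among those at an unadjusted p under 0.05 with edgeR. Fitted slopes on Arntl were positive for 8 of these 9, with a median of 0.26 beside -0.032 over all genes. The slope of Nr1d1, at 0.93 ± 0.64 (SE; unadjusted p = 0.168, edgeR), was the steepest of them. Per2 followed at 0.65 ± 0.52, Dbp at 0.49 ± 0.69, Nr1d2 at 0.35 ± 0.39, Per3 at 0.26 ± 0.47, Cry2 at 0.25 ± 0.32, Clock at 0.18 ± 0.28 and Per1 at 0.13 ± 0.51, and Tef had -0.063 ± 0.25.

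For the slope on Clock 2073 genes (14.2%) had an unadjusted p under 0.05. DESeq2 called 266 genes, and edgeR called 113 once DG/+ replicate 3 was left out. None of the 9 other members had an unadjusted p under 0.05. Nr1d2 came nearest with a slope of 0.78 ± 0.39 (SE; unadjusted p = 0.0619, adjusted p = 0.377, edgeR). Slopes on Clock were 0.47 ± 0.49 for Per3, 0.20 ± 0.33 for Arntl, 0.17 ± 0.27 for Tef and 0.11 ± 0.61 for Per2. They were -0.34 ± 0.36 for Cry2, -0.59 ± 0.55 for Per1, -0.74 ± 0.79 for Dbp and -0.86 ± 0.76 for Nr1d1. Clock levels moved with other measures of the libraries, which are given with the library measures.

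Of the further clock genes, 3 of 23 had an unadjusted p under 0.05 for the slope on Arntl, all with a positive slope, beside 5.28% of all genes. They were Rorb (1.76 ± 0.41), Rora (1.60 ± 0.43) and Hlf (1.17 ± 0.33, slope ± SE), with unadjusted p of 0.000635, 0.00205 and 0.00307 and an adjusted p of 0.912 for each (edgeR). Rora and Rorb encode nuclear receptors that activate Arntl through the RORE, and Hlf encodes the third PAR bZIP factor. For the slope on Clock, 4 of 23 had an unadjusted p under 0.05, 3 with a positive and 1 with a negative slope, beside 14.2% of all genes. Among them were Nampt (0.71 ± 0.25), an enzyme of NAD synthesis, and Sirt1 (0.80 ± 0.32), an NAD-dependent deacetylase. Both had positive slopes, with unadjusted p of 0.0128 and 0.0231 (edgeR). Their adjusted p were 0.233 and 0.272 (edgeR), so neither passed the test.

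The genes whose level was most like that of Arntl, by the smallest p of the slope of genes averaging 1 CPM or more, were Cadps2, Camk2n1, Igfn1, Map3k5, Rorb, Efna5, Pamr1, Gh, Hecw1 and Pomc in the positive direction. Their r with Arntl over the 14 libraries ranged from 0.51 (Gh) to 0.82 (Cadps2). In the negative direction they were Stac, Rftn1, Fam117a, Trp73, Mir678, Prmt2, Aldh1b1, Zdbf2, Efnb3 and Mina, with r from -0.65 (Zdbf2) to -0.89 (Fam117a). The adjusted p of each of the 20 slopes was 0.912 (edgeR). Gh and Pomc encode pituitary hormones, and both were on the pituitary marker list that was high in DG/DG replicate 1, where Arntl stood at 46.6 CPM, the second highest level of the 14 libraries.

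The targets were also set against each other, and whether they followed each other more closely than Arntl or Clock was not tested. Over the 28 pairs of targets, a family examined after the data had been seen, r was positive for 25 and had a median of 0.41. In 9 pairs, all positive, the adjusted permutation p was under 0.05, and in 3 by Spearman's rho. The closest pair was Cry2 and Dbp, with r = 0.84 (permutation p = 9e-05, adjusted p = 0.00252) and rho = 0.82 (permutation p = 0.00057). Without the 2 libraries farthest from the median r was 0.78, and within the 6 DG/+ mice it was 0.89 (exact permutation p = 0.00972). An r with Cry2 as high as that of Dbp was reached by 0.128% of other genes averaging 1 CPM or more. Seen from Dbp, an r as high as that of Cry2 was reached by 0.714% of them. Over the other called pairs, taken from either gene, such shares ran from 0.193% to 5.57%. The lowest was for r with Per1 as high as that of Cry2. The highest was for r with Dbp as high as that of Per2.

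Per1 rose with Cry2 (r = 0.77, adjusted permutation p = 0.0167; rho = 0.76, permutation p = 0.00257; r = 0.70 without the 2 farthest libraries) and with Nr1d1 (r = 0.76, adjusted permutation p = 0.0167; rho = 0.67, permutation p = 0.0111; r = 0.72 without them). Cry2 also rose with Per2 (r = 0.71, adjusted permutation p = 0.0182; rho = 0.69; r = 0.63 without the 2 farthest) and with Nr1d1 (r = 0.73, adjusted permutation p = 0.0182; rho = 0.67; r = 0.62). Thus Cry2 was in 4 of the 9 pairs, and so was Per2 (with Per1, Cry2, Nr1d2 and Dbp). The pair Per1 and Per2 had r = 0.73 (adjusted permutation p = 0.0182; rho = 0.56), which dropped to 0.32 without the 2 libraries farthest from the median of Per1.

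Per2 rose with Nr1d2 (r = 0.67, adjusted permutation p = 0.0274; rho = 0.72; r = 0.75 without the 2 farthest libraries) and with Dbp (r = 0.65, adjusted permutation p = 0.0356; rho = 0.49; r = 0.73). Nr1d2 rose with Dbp (r = 0.68, adjusted permutation p = 0.0274; rho = 0.63), where r was 0.34 without the 2 farthest libraries. Tef and Per3 were in none of the 9 pairs. Tef had a negative r with Per1 (-0.29), Per3 (-0.30) and Nr1d1 (-0.44), and none of its relations passed the adjusted test. The Per3 row of the correlations ranged from -0.30 with Tef to 0.56 with Per2 (adjusted permutation p = 0.0809).

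The number of pairs depended on which libraries were kept. It was 0 when the 2 libraries farthest from the median of 1 gene of each pair were left out, which ended all 9 calls. It was 4 without WT replicate 3, 4 without DG/DG replicate 4, and 12 without DG/+ replicate 4. Without the 4 libraries set aside 1 pair passed, Per1 and Nr1d1 (r = 0.85, adjusted permutation p = 0.0389). Over the remaining mice r of Cry2 with Dbp was 0.82 and that of Per1 with Per2 was 0.80. Taking deviations from the genotype means left 7 pairs, with r = 0.66 for Per2 with Dbp and 0.72 for Per1 with Per2 no longer past the adjusted test.

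**Figure D4:**
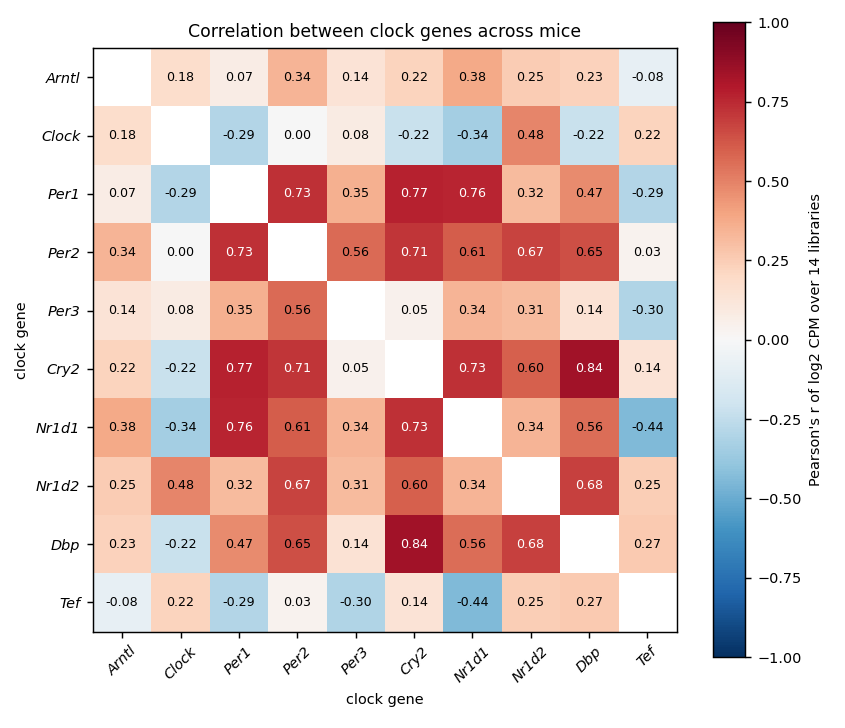
Pearson's r of log2 CPM over the 14 libraries for every pair of the 10 clock genes (colour and printed value; symmetric about the diagonal). The rows of Cry2, Per1, Per2, Nr1d1 and Dbp hold the high values (up to 0.84), while in the rows of Arntl, Clock and Tef r is 0.48 at most.

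Measures of the library were set beside each member, also after the data had been seen. They were 14 in all: the mean log2 CPM of the genes of 12 lists of cell types, regions or responses (members left out), the skew with GC content and the total count. Of the 140 relations 6 passed the adjusted permutation test by r and 7 by rho. The share of all genes related as closely to these measures was not determined. The relations are therefore not shown to be particular to the clock genes. Without the 4 libraries set aside 2 passed by r, Dbp with oligodendrocyte markers (r = 0.96) and Clock with endothelial markers (r = -0.91). The other 4 no longer passed there, with r of 0.83 for Nr1d1 with excitatory neurons, -0.79 for Per2 and -0.83 for Nr1d2 with astrocytes, and -0.88 for Clock with GC skew. Without WT replicate 3 alone 3 passed, which were Nr1d1 with excitatory neurons and both relations of Clock. Nr1d1 rose with markers of excitatory cortical neurons (r = 0.87, permutation p = 0.00012, adjusted p = 0.0091; rho = 0.85, permutation p = 0.00036; r = 0.82 without the 2 farthest libraries). Dbp rose with oligodendrocyte markers (r = 0.86, permutation p = 0.00023, adjusted p = 0.0091; rho = 0.67, permutation p = 0.0109), where the rho did not pass. Without the 2 farthest libraries this r was 0.67 and no longer passed (adjusted permutation p = 0.189). Dbp and the markers of inhibitory neurons had r = 0.74 (permutation p = 0.00257, adjusted p = 0.0514) and rho = 0.79 (permutation p = 0.00124, adjusted p = 0.039), so this relation passed by rank and not by r, and r was 0.80 without the 2 farthest libraries.

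Per2 and Nr1d2 fell as astrocyte markers rose. For Per2 r was -0.80 (permutation p = 0.00064, adjusted p = 0.0149; rho = -0.82, permutation p = 0.00043), and it was -0.81 without the 2 farthest libraries. For Nr1d2 r was -0.79 (permutation p = 0.00064, adjusted p = 0.0149; rho = -0.77, permutation p = 0.00195), and it was -0.67 without them, no longer past the adjusted test. The astrocyte list (Aqp4, Gja1, Aldh1l1, Slc1a3 and Gfap) also had negative r with Dbp (-0.70) and Per3 (-0.68), which did not pass.

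Clock fell as endothelial markers rose (r = -0.88, permutation p = 0.00014, adjusted p = 0.0091; rho = -0.78, permutation p = 0.00182) and as the skew with GC content rose (r = -0.83, permutation p = 0.00026, adjusted p = 0.0091; rho = -0.78, permutation p = 0.00147). Without the 2 farthest libraries these r were -0.57 and -0.60 and no longer passed the adjusted test. Those libraries, DG/DG replicate 2 and DG/+ replicate 4, held the highest Clock, and their 3 endothelial markers summed to 78.5 and 83.8 CPM, where the other 12 libraries held 106.9 to 136.1 CPM. With GC-corrected levels r of Clock was -0.67 with endothelial markers (adjusted permutation p = 0.096) and -0.48 with GC skew (adjusted permutation p = 0.38). Neither passed there, while the calls of Nr1d1, Dbp, Per2 and Nr1d2 stayed. The skew is the rank correlation of the genes' deviations in a library with their GC content, and the Clock transcript has 42.1% GC. The correction takes out the median deviation of genes of like GC content. A lower r of Clock with GC skew after it is thus partly built in and is no separate test. The relations of Clock to its targets share these libraries, and the part of GC content in them was not tested beyond the recomputed r. With GC-corrected levels r of Clock with Per1 was 0.014 and with Per2 0.19.

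Per1 and the immediate early genes, both induced by neuronal activity, had r = 0.73 (permutation p = 0.00325, adjusted p = 0.0569) and rho = 0.78 (permutation p = 0.00172, adjusted p = 0.039), so the relation passed by rank and not by r. Nr1d1 had r = 0.63 with the same genes (adjusted permutation p = 0.141). Genes induced by glucocorticoids had r = -0.49 with Per1 and -0.67 with Nr1d1 (adjusted permutation p = 0.0769 for Nr1d1). No measure was related to Arntl, Per3, Cry2 or Tef past the adjusted test.

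**Figure D5:**
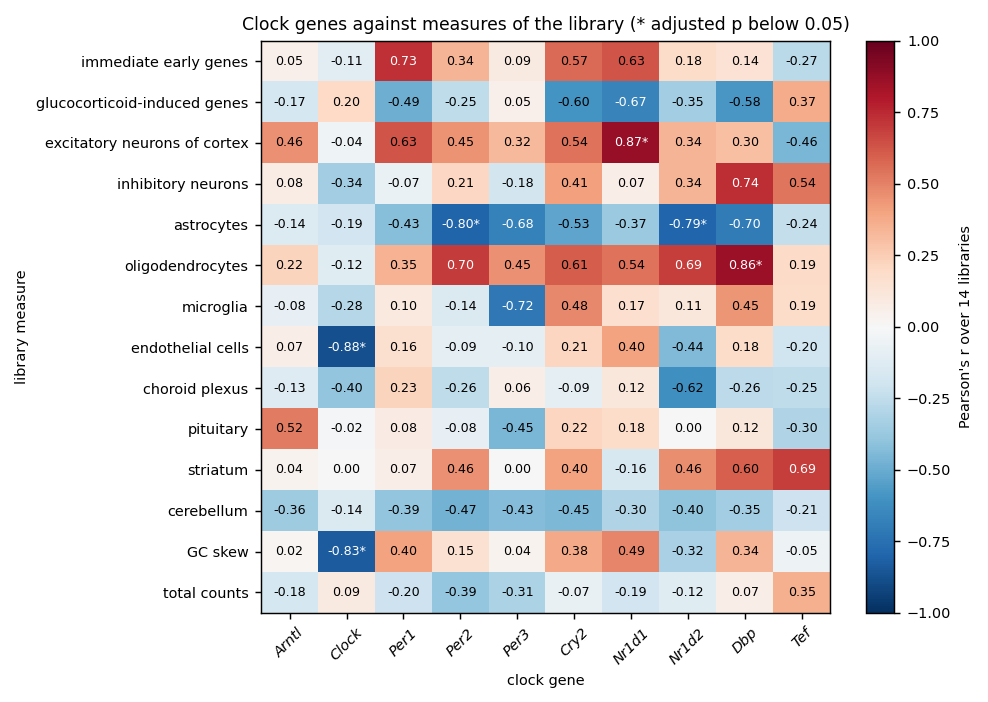
Pearson's r over the 14 libraries between each clock gene (columns) and each measure of the library (rows), with an asterisk where the adjusted permutation p was under 0.05 over the 140 relations. The 6 asterisks mark Nr1d1 with excitatory neurons (0.87), Per2 (-0.80) and Nr1d2 (-0.79) with astrocytes, Dbp with oligodendrocytes (0.86), and Clock with endothelial markers (-0.88) and GC skew (-0.83).

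Some members share genomic sequence with a neighbour, and the sources used here do not say whether counting used strand. Nr1d1 (chr11:98767932-98775377, GRCm38.p6) overlaps the thyroid hormone receptor gene Thra by 1075 bases. Thra stood at 354.7 to 524.1 CPM, and its r with Nr1d1 was -0.49 (permutation p = 0.0756; rho = -0.47, permutation p = 0.093; r = -0.19 without the 2 farthest libraries). Dbp (chr7:45705100-45710203) overlaps Sphk2, a sphingosine kinase gene, by 741 bases, with Sphk2 at 20.7 to 29.2 CPM and r = -0.053 (permutation p = 0.857; rho = -0.077). Per3 (chr4:150997018-151044707) overlaps Uts2 by 4714 bases. Per1 (chr11:69095108-69109965), Nr1d2 (chr14:18204056-18239106) and Tef (chr15:81802673-81826863) overlap no annotated gene. Arntl (chr7:113178471-113314126), Clock (chr5:76209868-76305603), Per2 (chr1:91415977-91459351) and Cry2 (chr2:92403646-92434085) overlap only predicted genes, pseudogenes or RIKEN transcripts.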

How the data were processed

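RNA of the anterior cortex was sequenced by the authors, and the deposited table holds 24939 RefSeq transcripts. Its raw read counts per transcript and library were the basis of all tests. The authors also deposited log2 expression values, which were used here as an alternative only, and for each genotype against WT a log2 fold change with a p-value and a false discovery rate. How the log2 values were normalized is not given in the sources used here. The submitters' processing notes name mm10 and edgeR with no version, and neither the aligner nor the counting tool and its use of strand is given in the sources used here. No column was left unmapped and no row lacked a gene name. In WT the mouse number in the labels is not the replicate number for 3 mice. The text uses the replicate number.

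For each of 19360 symbols the transcript with the largest summed count was kept. Arntl, Per1, Cry2 and Tef have a further transcript that was left out. Library totals of 8.65 to 15.91 M put the counting error of the members at 0.019 (Tef) to 0.065 (Arntl) as an SD on the log2 scale. In R 4.3.3, edgeR 4.0.16 (default low-count filter, TMM, robust quasi-likelihood) was fitted to all 14 libraries by genotype, with Benjamini-Hochberg adjustment over 14565 genes and a threshold of 0.05. It was fitted again with the log2 CPM of Arntl or Clock beside genotype. Both fits were tested on simulated counts. Correlations used log2 CPM (prior count 2) and 100000 permutations (Python 3.11.15, scipy 1.17.1), or all permutations within DG/+. Alternatives were DESeq2 1.42.0, limma-voom (limma 3.58.1), other size factors, filters and prior counts, the replicate number as a block, fewer libraries, deviations from genotype means, and, added after seeing the data, the authors' log2 values, a fit without the 2 libraries with hypothalamic markers (WT replicate 1 and DG/DG replicate 3), and levels corrected in 20 bins of GC content (14314 genes). Promoter windows, gene positions and overlaps came from RefSeq tables of GRCm38.p6. For Per2 no window was at hand.

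The members and all gene lists were chosen with earlier results of these data known. Every member is named in every comparison. Of the further clock genes up to 4 with the smallest p are named (some results for the slope on Clock are not reported here), and of the genes like Arntl the 10 with the smallest p in each direction. Other names were chosen after their values were seen.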

Additional observations from a re-analysis of the deposited data

Results flagged for a closer look

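In 5 of the 30 groups of mice (10 members in 3 genotypes) a single mouse lay far from the others of its genotype, by Dixon's ratio of the gap to the range. Chance alone gives about 1 in 20 such groups. Per1 in WT replicate 4 was the highest of 4 at 168.5 CPM, with 106.1 CPM the next. This mouse also had the highest immediate early genes (1704 CPM summed over 12 genes) and the fewest total counts (8.65 M). Per2 in DG/+ replicate 5 was the lowest of 6 at 66.8 CPM. Nr1d1 in DG/DG replicate 1 was the highest of 4 at 70.5 CPM, in the library with 4194 CPM of pituitary markers. Nr1d2 in DG/DG replicate 4 was the lowest of 4 at 128.0 CPM, in the library with the highest sum of the 5 astrocyte markers (1539 CPM). Dbp in WT replicate 3 was the lowest of 4 at 30.1 CPM, in the library with the highest choroid plexus markers (1289 CPM) and the lowest oligodendrocyte markers (1486 CPM). The part of these measures in the values was not tested.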

How the results depend on the processing

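No genotype difference of a member, and no relation of a target to Arntl or Clock, passed the adjusted test under any alternative run, so every change of sign below is of a value that had not passed. The numbers of genes called for genotype and for the slope on Arntl stayed at 0 under all alternatives. For the slope on Clock the number was 266 with DESeq2 and ranged from 0 to 113 with each library left out. Pairs of related targets numbered 0 without the 2 libraries farthest from the median, 1 without the 4 libraries set aside, and 4 to 12 with each library left out. Relations to library measures numbered 2 without those 4 libraries and 3 to 9 with each library left out. The causes were not tested. Whether the replicate numbers pair the mice was not tested. Same-numbered libraries correlated at -0.22 to 0.29 (median 0.072, 6 of 12 over 0.1). Libraries of other numbers correlated at -0.50 to 0.54 (median -0.051, 15 of 52 over 0.1). The block on replicate number ended no call of a gene but took the calls of Cry2 with Dbp (r = 0.74), Per2 with Dbp (0.77) and Per1 with Per2 (0.76). It added Per3 with Nr1d2 (0.79) and Per2 with Per3 (0.74), and gave 8 pairs in all. Replicate numbers 5 and 6 occur in DG/+ only, so the block fits those mice exactly and they add nothing to these r. The permutation still shuffled them with the other DG/+ mice, so the p-values behind these calls are approximate only.

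Signs turned as follows. With the replicate block r was -0.042 for Per1 with Arntl, 0.028 for Tef with Arntl, 0.0065 for Tef with Per3 and -0.30 for Tef with Cry2, the log2 fold change was 0.041 for Per2 (DG/+ against WT) and -0.022 for Clock (DG/DG against DG/+), and slopes were -0.083 (Per1) and 0.010 (Tef) on Arntl and -0.20 (Per2) on Clock. Without the 4 libraries log2 fold changes were -0.14 (Cry2), -0.044 (Nr1d2) and -0.27 (Dbp) for DG/DG against WT, -0.10 (Per1), -0.011 (Cry2) and -0.096 (Nr1d1) for DG/+ against WT, and 0.0013 (Tef) for DG/DG against DG/+. Slopes on Arntl were then -0.87 (Per3), -0.067 (Cry2), -0.17 (Nr1d2), -1.51 (Dbp) and 0.011 (Tef), and r was 0.046 for Tef with Arntl and -0.067 for Per3 with Clock. Without the 2 farthest libraries Per3 had r of -0.068 with Arntl, -0.11 with Clock, -0.20 with Per1 and -0.12 with Cry2. GC-corrected levels gave r with Clock of 0.014 (Per1), 0.19 (Per2), 0.11 (Cry2) and 0.0034 (Dbp). The authors' log2 values gave -0.015 for Per1 with Arntl, deviations from genotype means 0.070 for Per2 with Clock, limma-voom a log2 fold change of 0.011 for Per2 (DG/+ against WT), the pair of genotypes alone 0.0011 for Arntl (DG/DG against WT), and the model without genotype a slope of -0.048 for Per2 on Clock. Without the 2 libraries with hypothalamic markers r was -0.021 (Per1 with Arntl), 0.16 (Tef with Arntl) and -0.0013 (Per3 with Clock), log2 fold changes were 0.049 (Arntl) and -0.046 (Dbp) for DG/DG against WT, -0.0032 (Nr1d1) for DG/+ against WT and 0.045 (Arntl) for DG/DG against DG/+, and the slope of Tef on Arntl was 0.13, while 10 pairs and 7 relations to library measures passed.

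With each library left out, log2 fold changes of DG/DG against WT ranged from -0.063 to 0.068 (Arntl), -0.00052 to 0.11 (Clock), -0.033 to 0.12 (Cry2), -0.12 to 0.19 (Dbp), -0.048 to 0.12 (Nr1d2), -0.21 to 0.094 (Per1), -0.35 to 6.7e-05 (Per2) and -0.0088 to 0.082 (Tef). Those of DG/+ against WT ranged from -0.043 to 0.079 (Arntl), -0.0017 to 0.071 (Clock), -0.079 to 0.25 (Nr1d1), -0.17 to 0.18 (Per2) and -0.15 to 0.085 (Per3), and those of DG/DG against DG/+ from -0.074 to 0.045 (Arntl), -0.037 to 0.078 (Clock) and -0.053 to 0.033 (Tef). Slopes ranged from -0.21 to 0.46 (Per1), -0.11 to 0.51 (Per3) and -0.25 to 0.12 (Tef) on Arntl and from -0.14 to 0.31 (Per2) on Clock. The r ranged from -0.16 to 0.23 (Cry2 with Per3), -0.039 to 0.28 (Dbp with Per3), -0.079 to 0.16 (Per2 with Clock), -0.011 to 0.36 (Per3 with Arntl), -0.14 to 0.22 (Per3 with Clock), -0.36 to 0.11 (Tef with Arntl), -0.046 to 0.23 (Tef with Cry2) and -0.11 to 0.26 (Tef with Per2). The spread between mice was 1.99 times the counting error for Arntl and 3.65 to 6.60 times for the other members, so counting error made up the largest share of the spread for Arntl.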
